A study of Homo sapiens with 9 samples.

Results

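The expression of the RNA interference and microRNA machinery was examined through 10 genes in MDA-MB-453, an established cell line from a human breast cancer. The genes were chosen by name: the Argonautes AGO1, AGO2, AGO3 and AGO4, the nuclease DICER1 and its partners TARBP2 and PRKRA, the Microprocessor subunits DROSHA and DGCR8, and the export receptor XPO5. All 10 were among the 19930 genes of the deposited RNA sequencing table, and all 10 were among the 12884 genes that were tested because their mean reached 1 FPKM (fragments of a gene divided by its length and by the library's mapped total). Cells were transfected with si-LINC00673-1 or si-LINC00673-2, small interfering RNAs against the long noncoding RNA LINC00673, or with the negative control siRNA si-NC, by lipofection, and the protocol in the labels gives a harvest at 48 h. Each group had 3 libraries, labelled without a suffix, r1 and r2, and the labels do not say whether these came from separate cultures, so that the P values measure the spread between these libraries. The labels call 6 libraries a knockdown of LINC00673, and the number of the siRNA was read from the numbering in their titles. All 9 libraries, si-NC included, received a small RNA duplex, and untreated cells were not analysed here.

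RNA interference and the microRNA pathway share most of their proteins. In the nucleus, DROSHA and its double-stranded RNA-binding partner DGCR8 form the Microprocessor, which cuts hairpins out of primary microRNA transcripts, and XPO5 carries the hairpins to the cytoplasm. There DICER1, assisted by TARBP2 or PRKRA, trims them to duplexes, and an Argonaute protein keeps one strand as its guide. A transfected siRNA duplex enters this pathway at the loading step. AGO2 is the Argonaute known for slicing a fully paired target, while each of the human Argonautes can hold a microRNA and recruit GW182 proteins for repression. The comparison is of the mRNA level of these genes between knockdown and control cells, and protein levels and the microRNAs themselves were not analysed here.

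The guide strands of the siRNAs and the microRNA studied with LINC00673, miR-515-5p, are shown because they are the small RNAs that the machinery carried or was studied with. Capitals mark the seed, bases 2 to 8 from the 5′ end. The siRNAs come from the study's oligonucleotide list and the microRNA from RefSeq.
si-LINC00673-1: aGAAACCUcugauuccacctt
si-LINC00673-2: uUAUUAUUugagacagggucu
si-NC: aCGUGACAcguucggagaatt
hsa-miR-515-5p: uUCUCCAAaagaaagcacuuucug
The siRNAs do not share a seed with each other or with miR-515-5p. The longest unbroken complement between a guide and any GENCODE transcript of the 10 genes was 7 to 10 bases for si-LINC00673-1, 8 to 10 for si-LINC00673-2 and 6 to 8 for si-NC, so that none of the 10 genes held a full-length target of these siRNAs.

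The libraries were similar in depth, at an estimated 24.0 to 27.9 M fragments each. Of the markers of the cell line, KRT8 was at 3011 to 3773 FPKM, EPCAM at 287 to 330, FGFR4 at 17.89 to 33.05 and ERBB2 at 11.79 to 17.82. The luminal factor FOXA1, a defining marker of the line, was listed at 0 in 7 of 9 libraries and was at most 0.04 FPKM in the others, and the name of the line is given as labelled. Of the immune markers, 3 of 4 were in the table, and their summed level was between 0.11 and 0.31 FPKM in all groups. The summed level of the 5 stromal and endothelial markers ranged from 3.95 to 4.57 FPKM in si-NC cells, from 5.87 to 6.41 in si-LINC00673-1 cells and from 5.75 to 7.49 in si-LINC00673-2 cells, most of it from COL1A1, and its part in the results was not tested.

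In the si-NC libraries PRKRA had the highest level of the 10 genes, with a mean of 22.7 FPKM. DROSHA (14.9 FPKM), TARBP2 (14.7), AGO2 (13.2) and XPO5 (13.2) followed, and neighbours in this order overlapped between libraries. DICER1 (6.92 FPKM), AGO1 (6.91) and DGCR8 (6.86) formed a lower step, in which the libraries again overlapped. AGO4 (3.56 FPKM) and AGO3 (3.20) were lowest, and their libraries did not overlap. FPKM depends on the transcript models used, and the longest AGO3 transcript of the table has 3645 bases, shorter than the longest 3′UTR of AGO3 in GENCODE (16755 bases), so that its place in this order is less certain. Among all tested genes, the si-NC level of PRKRA was higher than that of 75.1% and the level of AGO3 was higher than that of 21.3%.

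**Figure D1:**
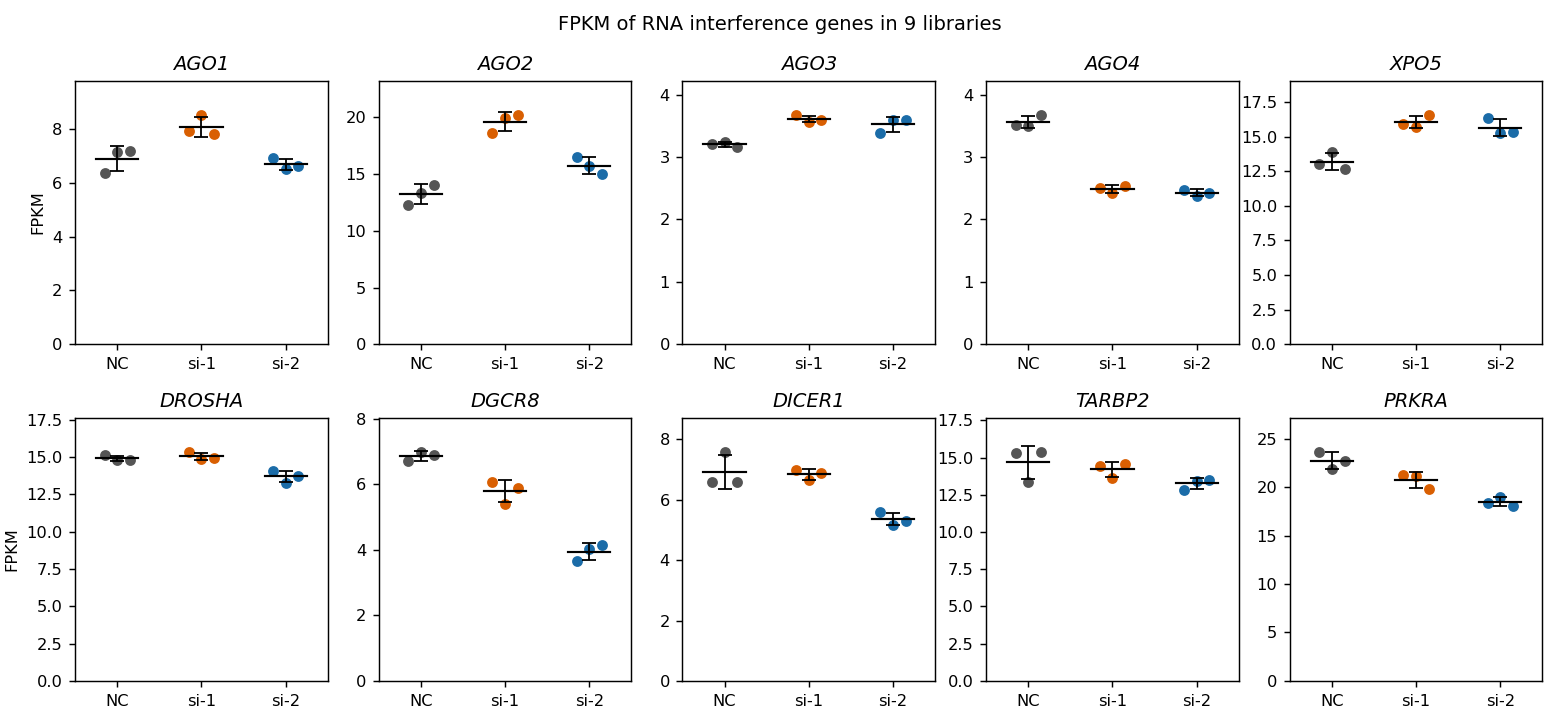
FPKM of the 10 genes (vertical axis, from 0) in the si-NC (NC), si-LINC00673-1 (si-1) and si-LINC00673-2 (si-2) groups. Each point is 1 library, in the order no suffix, r1 and r2, the horizontal line is the mean and the bar is the SD of 3 libraries. AGO2 was highest with si-LINC00673-1, AGO4 was lower with both siRNAs, and DGCR8 was lowest with si-LINC00673-2.

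A gene was called changed when limma on log2(FPKM + 1) gave it a 1.3-fold or larger difference and an unadjusted P value not above 0.05, and limma's Benjamini-Hochberg adjusted P over all tested genes is given with it. The fold changes are on this scale, which understates the change of low genes. Under these criteria 2 of the 10 genes changed with si-LINC00673-1, where AGO2 rose and AGO4 fell, against 26.7% of all tested genes, 11.1% higher and 15.6% lower. With si-LINC00673-2, 2 of 10 changed, DGCR8 and AGO4, which both fell, against 34.0% of all tested genes, 11.0% higher and 23.1% lower. In the comparison of the siRNAs with each other, 1 of 10 changed, DGCR8, against 7.64% (2.19% higher and 5.45% lower with si-LINC00673-2). The shares among the 10 genes were thus no larger than those among all genes for each siRNA against si-NC, and between the siRNAs 1 of 10 was close to the background. Both comparisons with si-NC use the same 3 control libraries.

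Smaller differences were common in these data. An adjusted P of at most 0.05 without a limit on the fold change was reached with si-LINC00673-1 by 7 of the 10 genes (4 higher, 3 lower) and by 64.4% of all tested genes (32.1% higher, 32.3% lower). With si-LINC00673-2 it was reached by 9 of 10 (3 higher, 6 lower) and by 70.8% of all tested genes (26.0% higher, 44.8% lower). Between the siRNAs it was reached by 6 of 10, all lower with si-LINC00673-2, and by 44.0% of all tested genes (10.2% higher, 33.9% lower). Of these 6, PRKRA and DROSHA lost it after median ratio scaling (limma adjusted P = 0.36 and 0.59) and after GC correction (0.73 and 0.44), while AGO1, AGO2, DICER1 and DGCR8 kept it under both. The libraries of the groups compared did not overlap for 7 of 10 genes with si-LINC00673-1, 8 of 10 with si-LINC00673-2 and 7 of 10 between the siRNAs, beside 70.0%, 73.0% and 53.7% of all tested genes. The median log2 fold change of the 10 genes was -0.12 with si-LINC00673-2 and -0.14 between the siRNAs, beside -0.095 and -0.081 for all tested genes.

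**Figure D2:**
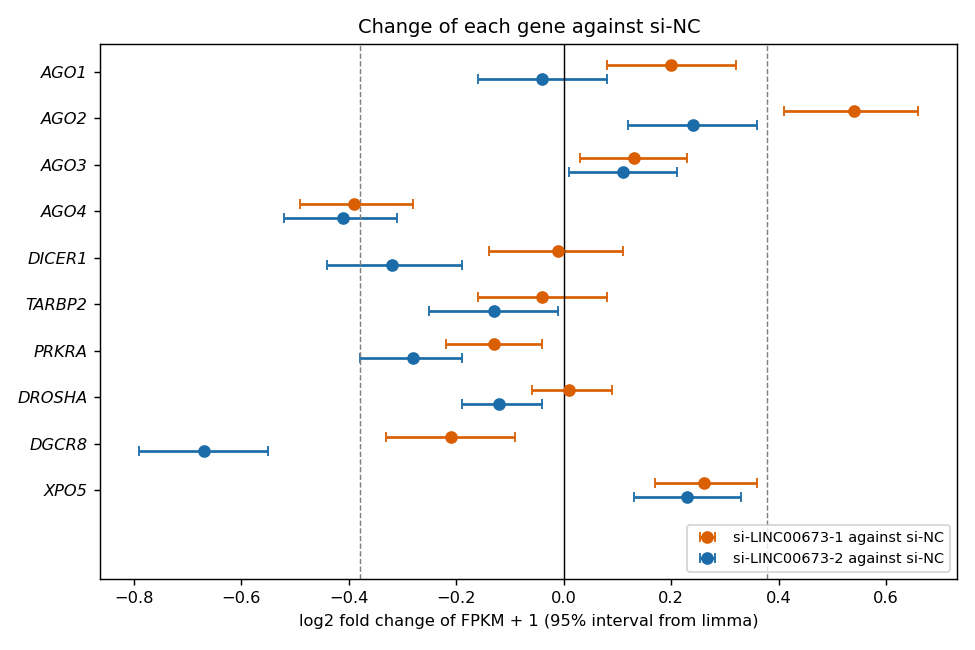
Log2 fold change of FPKM + 1 of each gene (horizontal axis) with si-LINC00673-1 and si-LINC00673-2 against si-NC, with the 95% interval from limma. The dashed lines mark a fold change of 1.3, which AGO2 passed with si-LINC00673-1, DGCR8 with si-LINC00673-2 and AGO4 with both.

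AGO2, the slicing Argonaute, was measured at 12.29, 13.34 and 14.03 FPKM with si-NC. With si-LINC00673-1 it was at 18.66, 19.99 and 20.18 FPKM, and the libraries of si-LINC00673-2 gave 16.52, 15.75 and 15 FPKM. The 3 groups did not overlap, with si-LINC00673-2 between the others. The mean FPKM was 48.3% higher with si-LINC00673-1 (log2 fold change 0.54, SE 0.055, limma adjusted P = 1.7e-05). With si-LINC00673-2 it was 19.2% higher, below the fold limit (log2 fold change 0.24, SE 0.055, limma adjusted P = 0.003). The difference between the siRNAs was itself tested and was -0.30 on the log2 scale, lower with si-LINC00673-2 (limma adjusted P = 0.002). Leaving out any single library kept the log2 fold change at 0.49 to 0.58 with si-LINC00673-1 and at 0.19 to 0.28 with si-LINC00673-2.

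AGO4, an Argonaute without slicing activity, was measured at 3.52, 3.5 and 3.67 FPKM with si-NC. The si-LINC00673-1 libraries were at 2.51, 2.42 and 2.53 FPKM, and the libraries of si-LINC00673-2 gave 2.48, 2.37 and 2.43 FPKM. Every siRNA library against LINC00673 was below every si-NC library, and the siRNA groups overlapped each other. The gene has 1 transcript in the table, and these values correspond to an estimated 633 to 705 fragments in the control cells, and to 416 to 454 and 406 to 432 after the first and the second siRNA. The mean FPKM fell by 30.2% with si-LINC00673-1 (log2 fold change -0.39, SE 0.047, limma adjusted P = 5.2e-05) and by 31.9% with si-LINC00673-2 (-0.41, SE 0.047, limma adjusted P = 2.6e-05). The difference between the siRNAs was -0.03 on the log2 scale, with a 95% interval from -0.13 to 0.08. The fold change lay just past the limit of 1.3: with si-LINC00673-1 it was -0.37 without si-LINC00673-1 r1 or without si-NC r2, and with si-LINC00673-2 it was -0.33 after each library was scaled by its median ratio over expressed genes, each under the limit.

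AGO1 and AGO3 lie beside AGO4 on chromosome 1. In the deposited coordinates (GRCh37, per the submitters' processing notes) all 3 are on the forward strand, with AGO4 at chr1:36273828-36323491, AGO1 at chr1:36335409-36396153 and AGO3 at chr1:36396683-36522063. The gaps between the genes are 11917 and 529 bases. These neighbours did not share the fall of AGO4. AGO1 was measured at 6.37, 7.17 and 7.2 FPKM with si-NC, 7.94, 8.52 and 7.84 with si-LINC00673-1 and 6.93, 6.53 and 6.62 with si-LINC00673-2. The si-LINC00673-1 libraries were above all others, and the other groups overlapped. Its log2 fold change was 0.20 with si-LINC00673-1 (limma adjusted P = 0.0073) and -0.04 with si-LINC00673-2 (limma adjusted P = 0.53), and the difference between the siRNAs was -0.24 (limma adjusted P = 0.0053), or -0.15 after median ratio scaling (limma adjusted P = 0.049). The direction with si-LINC00673-2 depended on the scaling and was 0.05 after median ratio scaling. AGO3 was at 3.21, 3.24 and 3.16 FPKM with si-NC, 3.67, 3.57 and 3.59 with si-LINC00673-1 and 3.39, 3.6 and 3.6 with si-LINC00673-2. Both siRNA groups lay above si-NC, by 0.13 and 0.11 on the log2 scale (limma adjusted P = 0.023 and 0.05). With si-LINC00673-1 the difference of AGO3 was 0.05 after GC correction (limma adjusted P = 0.38), and with si-LINC00673-2 it was 0.19 after median ratio scaling (limma adjusted P = 0.0028).

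Summed over the Argonautes, the FPKM was 26.9 ± 1.37 (SD, n = 3) with si-NC, 33.8 ± 0.907 with si-LINC00673-1 and 28.4 ± 0.846 with si-LINC00673-2. The sum was 6.91 FPKM higher with si-LINC00673-1, without overlap (two-sided exact permutation test, p = 0.1, the smallest that 3 libraries against 3 allow). With si-LINC00673-2 it was 1.51 FPKM higher and the groups overlapped (exact permutation p = 0.2). This second difference depended on the scaling and on single libraries: it was 3.59 FPKM, without overlap, after median ratio scaling and 0.752 FPKM without the unsuffixed si-NC library. The makeup of the sum also differed. AGO2 made up 49.1% ± 0.81 of it with si-NC, 58.0% ± 1.09 with si-LINC00673-1 and 55.4% ± 1.08 with si-LINC00673-2, and no groups overlapped. AGO4 made up 13.3% ± 0.534, 7.36% ± 0.324 and 8.55% ± 0.213, again without overlap (exact permutation p = 0.1 for each siRNA against si-NC). The share of AGO1 was 25.7% with si-NC, 24.0% with si-LINC00673-1 and 23.6% with si-LINC00673-2. The share of AGO3 was 11.9%, 10.7% and 12.4%. These are shares of mRNA and say nothing of the proteins.

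**Figure D3:**
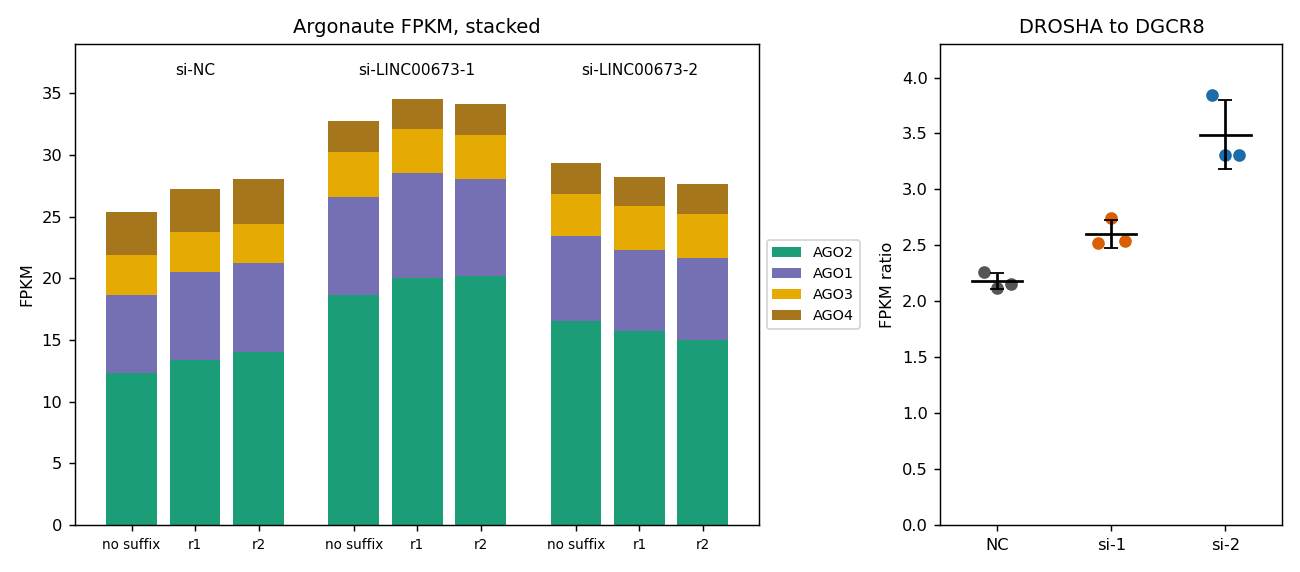
Left, FPKM of AGO1 to AGO4 stacked for each of the 9 libraries, with the sum on the vertical axis. Right, the ratio of DROSHA to DGCR8 FPKM by group, with points for libraries, a line for the mean and a bar for the SD. The Argonaute sum was highest with si-LINC00673-1 and the ratio was highest with si-LINC00673-2.

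DGCR8, the RNA-binding subunit of the Microprocessor, had the largest difference of the 10 genes with si-LINC00673-2. It was measured at 6.7, 6.98 and 6.9 FPKM with si-NC. With si-LINC00673-1 it was at 6.08, 5.41 and 5.89 FPKM, and the libraries of si-LINC00673-2 gave 3.66, 4.01 and 4.16 FPKM. The 3 groups did not overlap, and si-LINC00673-2 was lowest. With si-LINC00673-2 the mean FPKM fell by 42.5% (log2 fold change -0.67, SE 0.054, limma adjusted P = 2.6e-06), and leaving out any single library kept the log2 fold change between -0.70 and -0.63. With si-LINC00673-1 it was 15.5% lower, which did not reach the fold limit (log2 fold change -0.21, limma adjusted P = 0.0064). The siRNAs differed by -0.46 on the log2 scale (SE 0.054, limma adjusted P = 2.0e-04), or by -0.37, under the fold limit, after median ratio scaling.

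DROSHA, the nuclease of the same complex, was at 15.11, 14.83 and 14.83 FPKM with si-NC. The si-LINC00673-1 libraries were at 15.34, 14.85 and 14.95 FPKM, and the libraries of si-LINC00673-2 gave 14.07, 13.29 and 13.75 FPKM. The si-LINC00673-2 libraries were below all others. DROSHA differed from si-NC by 0.01 on the log2 scale with si-LINC00673-1 (95% interval -0.06 to 0.09) and by -0.12 with si-LINC00673-2 (limma adjusted P = 0.012). The difference with si-LINC00673-2 was -0.02 after median ratio scaling (limma adjusted P = 0.71) and -0.09 after GC correction (limma adjusted P = 0.023). The ratio of DROSHA to DGCR8 FPKM was 2.18 ± 0.0694 with si-NC, 2.60 ± 0.124 with si-LINC00673-1 and 3.49 ± 0.309 with si-LINC00673-2 (SD, n = 3), and no groups overlapped (exact permutation p = 0.1 for each pair).

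The DGCR8 transcript itself contains microRNA hairpins, which the Microprocessor is known to cut. The mature sequences in its exons are shown for that reason, with seeds in capitals. They lie on the forward strand of chromosome 22 in GRCh38.p14 (RefSeq), miR-3618 in the untranslated part of an exon at chr22:20085797-20085818, miR-1306-5p in coding sequence at chr22:20086072-20086093 and miR-1306-3p in coding sequence at chr22:20086112-20086129.
hsa-miR-3618: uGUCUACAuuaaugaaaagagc
hsa-miR-1306-5p: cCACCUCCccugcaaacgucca
hsa-miR-1306-3p: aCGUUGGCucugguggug
The reads of the table do not separate cut from uncut DGCR8 transcripts. In GENCODE 7.19% of the exon bases of DGCR8 also lie in AC006547.2 on the opposite strand, and whether the counting used strand is not given in the sources used here. Smaller opposite-strand overlaps exist for other members, among them XPO5 with POLR1C (4.08%), PRKRA with PJVK (3.35%) and AGO1 with AL139286.2 (2.85%).

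XPO5, the exporter of precursor hairpins, was measured at 13.05, 13.85 and 12.69 FPKM with si-NC. With si-LINC00673-1 it was at 15.92, 15.68 and 16.53 FPKM, and the libraries of si-LINC00673-2 gave 16.35, 15.29 and 15.3 FPKM. All 6 knockdown libraries were above the si-NC libraries, and the siRNA groups overlapped. The mean was 21.6% and 18.6% higher, which stayed under the fold limit (log2 fold changes 0.26 and 0.23, SE 0.043, limma adjusted P = 4.3e-04 and 8.8e-04). The siRNAs differed by -0.03, with a 95% interval from -0.13 to 0.06.

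DICER1 was measured at 6.58, 7.58 and 6.6 FPKM with si-NC. The si-LINC00673-1 libraries were at 6.98, 6.65 and 6.89 FPKM, and the libraries of si-LINC00673-2 gave 5.58, 5.18 and 5.31 FPKM. The si-LINC00673-2 libraries were below all others, and the remaining groups overlapped. DICER1 differed from si-NC by -0.01 on the log2 scale with si-LINC00673-1 (95% interval -0.14 to 0.11). With si-LINC00673-2 the mean was 22.6% lower, under the fold limit (log2 fold change -0.32, SE 0.055, limma adjusted P = 5.4e-04). The difference between the siRNAs was -0.30 (limma adjusted P = 0.002), or -0.18 after GC correction (limma adjusted P = 0.0052).

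The partners of DICER1 had smaller differences. PRKRA, named for its activation of the kinase PKR, was at 23.63, 21.91 and 22.68 FPKM with si-NC, 21.23, 21.15 and 19.78 with si-LINC00673-1 and 18.38, 19 and 18.09 with si-LINC00673-2. The groups did not overlap. On the log2 scale it was lower by -0.13 and -0.28, both under the fold limit (limma adjusted P = 0.02 and 1.5e-04), and the second was -0.18 after median ratio scaling. TARBP2 was at 15.28, 13.39 and 15.37 FPKM with si-NC, 14.43, 13.65 and 14.59 with si-LINC00673-1 and 12.85, 13.43 and 13.51 with si-LINC00673-2. Both siRNA groups overlapped si-NC, through the low si-NC r1 library. The log2 fold change of TARBP2 was -0.04 with si-LINC00673-1 (limma adjusted P = 0.53) and -0.13 with si-LINC00673-2 (limma adjusted P = 0.045), or -0.03 after median ratio scaling (limma adjusted P = 0.59). The direction of TARBP2 depended on the processing: after a GC correction per library the values were 0.20 and 0.14. At 60.8% GC, its longest transcript has a higher GC content than 87.2% of the tested genes, the highest of the 10.

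**Figure D4:**
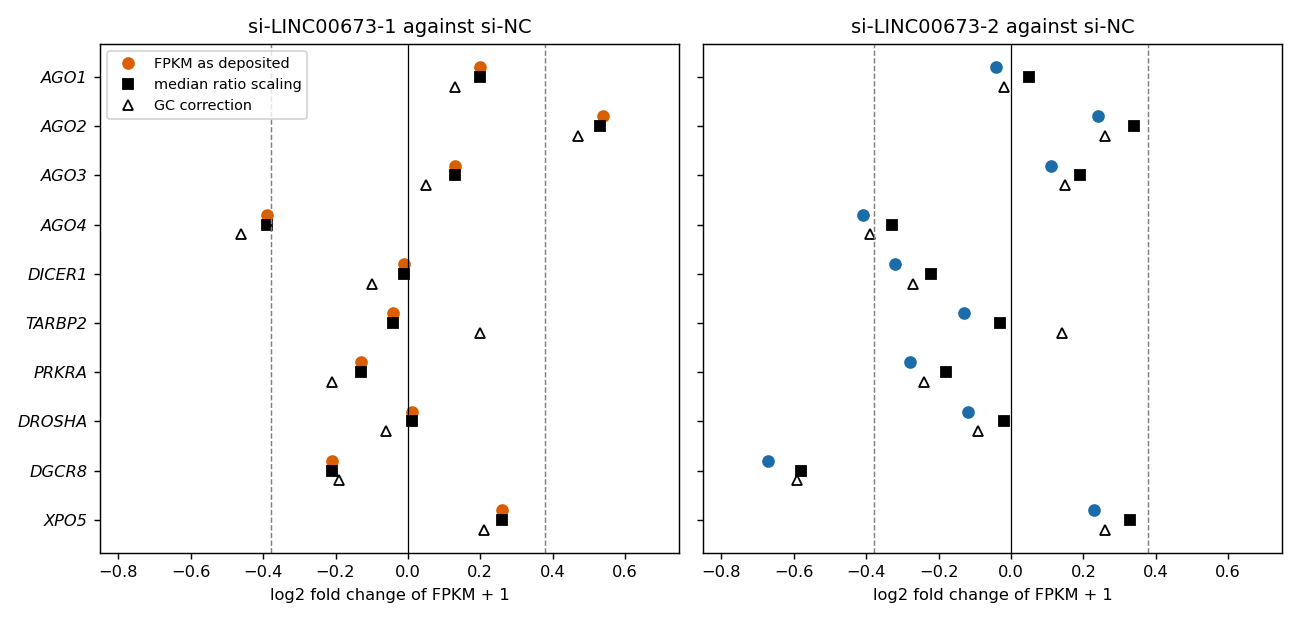
Log2 fold change of FPKM + 1 of the 10 genes (horizontal axis) against si-NC for each siRNA, from FPKM as deposited, after median ratio scaling and after GC correction. Dashed lines mark a fold change of 1.3. TARBP2 turned positive after GC correction with both siRNAs, and with si-LINC00673-2 the scaled values of all 10 genes lay to the right of the deposited ones.

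The 3′UTRs of the 10 genes were searched for the complement of bases 2 to 8 of each small RNA, as a description of sequence and not of binding. The longest annotated 3′UTR of each gene in GENCODE was used, together 54641 bases, and 11344 tested genes had one. The site of si-LINC00673-1, AGGTTTC, occurred in 1 of 10 genes, AGO1, and in 14.4% of the tested genes (0.0183 and 0.0769 sites per kilobase). For si-NC, the site TGTCACG was in 1 of 10 genes, AGO3, and in 3.66% of the tested genes (0.0183 and 0.0174 sites per kilobase). The site of si-LINC00673-2, AATAATA, occurred in 5 of 10 genes (AGO1, AGO2, AGO3, DICER1 and DROSHA) and in 21.7% of tested genes. Per kilobase the members had 0.22 of these sites and the tested genes 0.163. Overlapping matches were counted separately, and 5 of the 12 member sites were in AGO3, where all 5 overlapped a neighbour (positions 10820, 10823, 14324, 14327 and 14330). Genes with the AATAATA site were at -0.04 (AGO1), 0.24 (AGO2), 0.11 (AGO3), -0.32 (DICER1) and -0.12 (DROSHA) with si-LINC00673-2 against si-NC (log2 scale). Those without it were at -0.67 (DGCR8), -0.41 (AGO4), -0.28 (PRKRA), -0.13 (TARBP2) and 0.23 (XPO5). Whether the sites had a part in these values was not tested.

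The site of miR-515-5p, TTGGAGA, occurred in 3 of 10 genes, XPO5 with 1, AGO3 with 1 and DICER1 with 2, and in 21.8% of tested genes. Per kilobase it was found 0.0732 times in the members and 0.126 times in the tested genes, the opposite order to the shares of genes. Their surroundings are shown for the members with the clearest differences, with the site in capitals and as DNA of the transcript's strand.
XPO5: cccattctacTTGGAGAtttgg
DICER1, first site: tcactttttgTTGGAGAaaaat
DICER1, second site: tttaaagttgTTGGAGAcgcca
Against si-NC, XPO5 was higher by 0.26 and 0.23 on the log2 scale, AGO3 by 0.13 and 0.11, and DICER1 was at -0.01 and -0.32. Whether the sites of miR-515-5p had a part in these values was not tested.

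The sites of a pair of abundant microRNA families were counted as a reference. The site of let-7a-5p, CTACCTC, was in 4 of 10 genes and in 12.7% of tested genes (0.0915 and 0.0668 sites per kilobase). The site of miR-103a-3p, ATGCTGC, was in 7 of 10 genes and in 16.6% of tested genes, and per kilobase it was found 0.329 times in the members and 0.0925 times in the tested genes. The long 3′UTRs of the Argonautes, up to 16755 bases in AGO3, raise the chance of any site, which the values per kilobase take into account.

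The genes whose pattern over the 9 libraries was nearest to a member were ranked by the root mean square difference of log2(FPKM + 1), each gene centred on its mean, over 11403 tested known genes. Nearest to AGO2 were KIF1B, a kinesin (difference 0.035), EIF2AK2, the double-stranded RNA-activated kinase PKR (0.044), and SLAIN2, a microtubule protein (0.044). EIF2AK2 was at 4.88 FPKM with si-NC, 7.46 with si-LINC00673-1 and 6.17 with si-LINC00673-2. Nearest to DICER1 were ZCCHC11 (0.032), which encodes the terminal uridylyltransferase TUT4 that tails let-7 precursors, ZNF30 (0.033) and INIP (0.034). ZCCHC11 was at 7.56, 7.33 and 6.02 FPKM in the same order of groups. Nearest to DROSHA were ALG8 (0.025), MDH1 (0.026) and ST13 (0.027).

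Beyond the 10 genes, 117 genes in 8 lists of their cofactors and downstream effectors were considered, of which 100 were in the table and 94 were tested. With si-LINC00673-1, 23 of 94 changed (17 rose, 6 fell), beside 26.7% of all tested genes. With si-LINC00673-2, 24 of 94 changed (16 rose, 8 fell), beside 34.0%. The split with si-LINC00673-2 was 21 higher and 6 lower after median ratio scaling and 20 higher and 5 lower after GC correction, and with si-LINC00673-1 GC correction gave 14 higher and 4 lower. The falls outnumbered the rises among all tested genes in both comparisons of FPKM as deposited, and whether the lists differ from all genes in direction was not tested.

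The chaperones that load small RNA duplexes into Argonaute, listed with the nuclease C3PO, held the most genes that rose of the 8 lists. Of 14 tested, 7 rose and 1 (CDC37) fell with si-LINC00673-1, and 7 rose and none fell with si-LINC00673-2. Among all tested genes 11.1% and 11.0% rose. The medians of the list were 0.47 and 0.46 on the log2 scale, beside 0.003 and -0.095 for all tested genes. HSP90AA1, the inducible HSP90 that holds Argonaute open, rose from 361 FPKM to 819 and 983 (log2 fold changes 1.18 and 1.44, limma adjusted P = 6.0e-09 and 5.3e-10). Its cochaperones STIP1 (0.96 and 1.03) and PTGES3, known as p23 (0.68 and 0.74), rose with both siRNAs. DNAJB1, an HSP40, rose from 66.7 FPKM to 186 and 652 (log2 fold changes 1.47 and 3.27), and the siRNAs differed by 1.80 (limma adjusted P = 2.5e-08). These chaperones serve many client proteins, and no list here separates their role in loading from the others. HSP90AB1, the other HSP90 of the list, was at 933 FPKM with si-NC and was not called (log2 fold changes -0.08 and -0.01). It was added after its values were seen. TSN and TSNAX, the subunits of C3PO, were not called either.

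Among the 13 cofactors of the Microprocessor, none was called higher, beside 11.1% and 11.0% of all tested genes with the first and the second siRNA. Called lower were 2 with si-LINC00673-1 and 3 with si-LINC00673-2, beside 15.6% and 23.1% of all tested genes. DDX5, the helicase p68, fell from 174 FPKM to 119 and 93.1 (log2 fold changes -0.55 and -0.90), and the siRNAs differed by -0.35 (limma adjusted P = 1.1e-04). HNRNPA1, which binds the hairpin of miR-18a, fell from 1840 FPKM to 1030 and 1020 (log2 fold changes -0.83 and -0.85, limma adjusted P = 2.2e-08 and 6.7e-09). Of the 8 genes of nuclear export and import, 2 rose and none fell with each siRNA, beside changes in 26.7% and 34.0% of all tested genes. Those that rose were named after their values were seen: TNPO1 (0.44) and XPO1 (0.53) with si-LINC00673-1, and RANBP1 (0.38) and NUP93 (0.45) with si-LINC00673-2.

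Among the 31 GW182 proteins and silencing effectors, 4 rose and 2 fell with si-LINC00673-1, and 3 rose and 3 fell with si-LINC00673-2. These were 6 of 31 with each siRNA, beside 26.7% and 34.0% of all tested genes, so that the list did not exceed the background. GIGYF1, a translational repressor, fell from 11.3 FPKM to 6.68 and 5.93. The decapping factors DCP1A (0.43 and 0.63 on the log2 scale) and PATL1 (0.53 and 0.50) and the deadenylase CNOT8 (0.40 and 0.47) rose with both siRNAs. Of the GW182 proteins, TNRC6B rose with si-LINC00673-1 (0.39) and was at 0.22 with si-LINC00673-2, TNRC6A was at -0.06 and -0.30, and TNRC6C was at 0.23 and -0.02. These values for the GW182 family were added after they were seen.

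Of 12 Argonaute regulators and partners, 1 rose (ANKRD52, 0.67, a phosphatase subunit) and 1 fell (AJUBA, -0.62) with si-LINC00673-1, and 2 fell with si-LINC00673-2, AJUBA (-0.80) and ZSWIM8 (-0.54). These were 2 of 12 with each siRNA, beside 26.7% and 34.0% of all tested genes. ANKRD52 and ZSWIM8 were named after their values were seen. Of 12 genes of microRNA tailing, trimming and decay, 2 rose and none fell with each siRNA, beside changes in 26.7% and 34.0% of all tested genes. The genes that rose were the exonucleases ERI1, from 4.03 FPKM to 6.58 and 6.54, and PNPT1, from 8.93 FPKM to 14.0 and 13.6. Of the PIWI proteins, germline relatives of the Argonautes, PIWIL1 rose from 2.78 FPKM to 5.56 and 6.56 (log2 fold changes 0.80 and 1.0, limma adjusted P = 1.8e-06 and 2.5e-07). PIWIL2 was at 0.663 FPKM with si-NC, 1.04 with si-LINC00673-1 and 1.34 with si-LINC00673-2. It met the criteria with si-LINC00673-2 (0.49). It passed the filter of a mean of 1 FPKM only through the knockdown groups, so that this call is tied to the filter. PIWIL4 was not called with either siRNA (-0.04 and -0.37). PIWIL3 and the methyltransferase HENMT1 were under the limit of 1 FPKM. Of 17 microRNA host transcripts, MCM7, the host of the miR-106b cluster, was tested (0.31 and 0.34, not called). The others were not found in the table under their names.

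**Figure D5:**
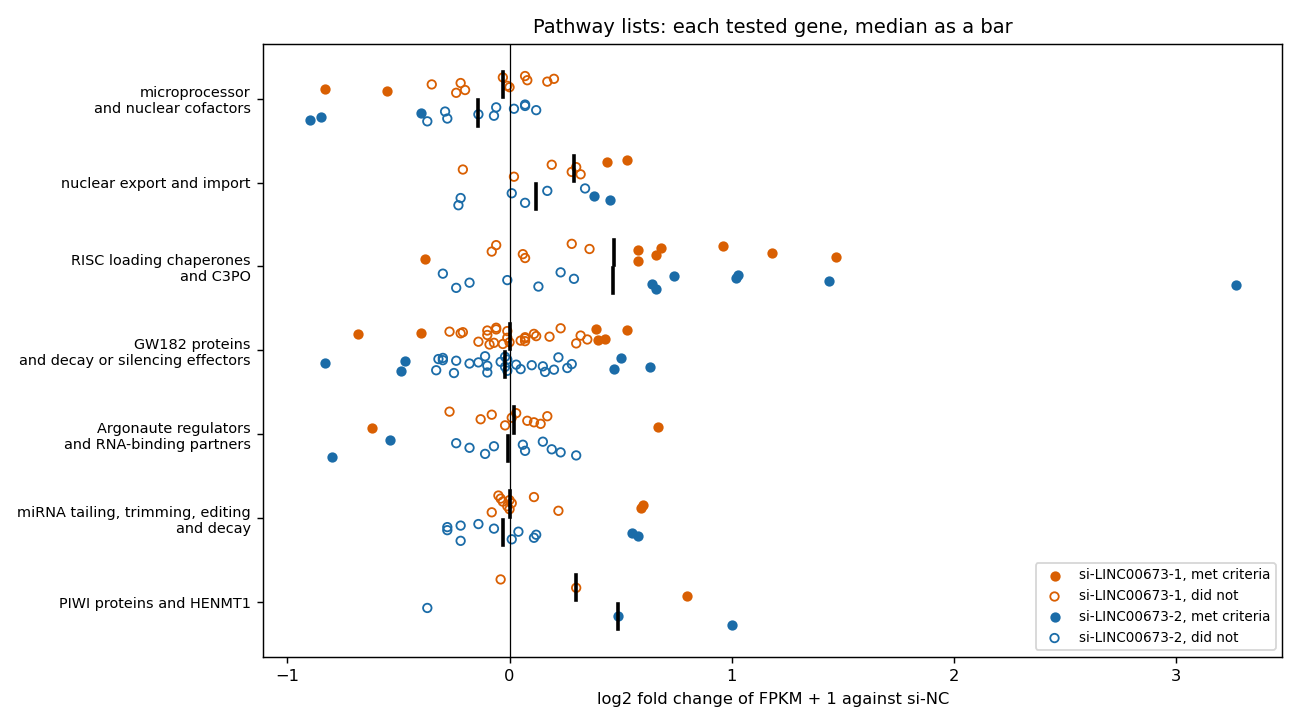
Log2 fold change of FPKM + 1 against si-NC (horizontal axis) of each tested gene in 7 lists, with filled points for genes that met the criteria, open points for those that did not and a black bar for the median of the list. Loading chaperones reached furthest to the right, with DNAJB1 at 3.27 with si-LINC00673-2, where DDX5 (-0.90) and HNRNPA1 (-0.85) lay furthest to the left.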

How the data were processed

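RNA sequencing of 9 libraries of MDA-MB-453 cells, made on the BGISEQ-500 platform, was analysed. The deposited table holds FPKM per gene and library, which the authors computed and rounded to 2 decimals. Bowtie2 and GRCh37.p13 are named in the submitters' processing notes, and the counting tool is not given in the sources used here. The table also holds log2 ratios, P values and Q values of the authors' own comparisons, which were not used. Each FPKM column is given 2 times with equal values, and 4 lines without values were left out. LINC00673 itself is not reported here.

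The fit was made with limma 3.58.1 in R 4.3.3 (lmFit, eBayes with trend) on log2(FPKM + 1), for the 12884 genes whose mean reached 1 FPKM, with all 9 libraries and the group as the only factor. Depth was estimated at 24.0 to 27.9 M fragments from FPKM steps of 199 to 224 genes of 300 to 900 bases, whose values lay on average 0.084 to 0.116 from whole fragments, and no count model was fitted. The fit was tested on simulated data with known changes. Sums, shares and ratios were compared with two-sided exact permutation tests. Sequences were taken from GENCODE release 29 (GRCh38), RefSeq and the study's oligonucleotide list. No 100-base stretch of a member's longest transcript was shared with another gene in GENCODE, and the shorter transcripts were not searched.

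The genes and lists were chosen with earlier results of these data known. From the lists, up to 4 genes per list with the largest mean change among those called in the same direction with both siRNAs were named, with all PIWI genes, and for AGO2, DICER1 and DROSHA the 3 genes of nearest pattern. No pairing of the libraries by replicate label was seen. The alternatives were other added values, filters and criteria, a fit of the compared groups alone, the replicate block, median ratio scaling, a GC correction (88.3% of tested genes had a GC value) and leaving out each library.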

Additional observations from a re-analysis of the deposited data

Results flagged for a closer look

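For 6 of the 10 genes the effects of the siRNAs differed from each other by a test of that difference (limma adjusted P of at most 0.05, si-LINC00673-2 against si-LINC00673-1, log2 scale). All were lower with si-LINC00673-2: AGO1 by -0.24, AGO2 by -0.30, DICER1 by -0.30, PRKRA by -0.16, DROSHA by -0.13 and DGCR8 by -0.46. The differences of PRKRA and DROSHA were lost after median ratio scaling (-0.05 and -0.03, limma adjusted P = 0.36 and 0.59) and after GC correction (-0.02 and -0.03, limma adjusted P = 0.73 and 0.44), and the other 4 kept an adjusted P of at most 0.05 under both. The median of all tested genes in this comparison was -0.081, and 33.9% of them were lower at the same adjusted P. Each group had 3 libraries, too few for a check of single libraries that stand apart.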

How the results depend on the processing

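The members called numbered 2 with si-LINC00673-1, 2 with si-LINC00673-2 and 1 between the siRNAs. With a mean of at least 5 FPKM, which removed AGO3 and AGO4, they were 1 and 1 for the siRNAs against si-NC. At a fold change of at least 1.5 they were 0, 1 and 0, and without a fold limit 7, 9 and 6. After median ratio scaling they were 1 with si-LINC00673-2 and 0 between the siRNAs. Leaving out each library gave 1 to 2, 2 to 2 and 1 to 1. The pathway genes called were 12 and 13 at a fold change of 1.5, 55 and 69 without a limit, and 20 to 24 and 23 to 25 when each library was left out. Directions turned for values near 0. After GC correction TARBP2 was 0.20 and 0.14 and DROSHA with si-LINC00673-1 was -0.06. After scaling AGO1 with si-LINC00673-2 was 0.05. Between the siRNAs, scaling gave AGO3 0.06, AGO4 0.05, XPO5 0.07 and TARBP2 0.01, and GC correction gave 0.10, 0.08 and 0.05 for the first 3. When each library was left out, DICER1 with si-LINC00673-1 was -0.04 to 0.05, turning positive at 0.01 without si-LINC00673-1 r1 and at 0.05 without si-NC r1, and DROSHA was -0.0021 to 0.02. The cause of these changes was not tested.

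With the replicate block the members called were 2, 2 and 1 and the pathway genes 23 and 24. Same-labelled libraries did not deviate together against si-NC (r of -0.0539 to 0.104 and of -0.239 to 0.0271). In these comparisons 1 of 3 and 0 of 3 labels correlated best with their own. With 3 libraries per group this cannot settle whether same-labelled libraries shared a culture or a batch. With the block, the exact sign-flip test gave p = 0.25 for the Argonaute sum with si-LINC00673-1 (6.91 FPKM) and p = 0.5 with si-LINC00673-2 (1.51 FPKM), where 0.25 is the smallest that 3 pairs allow. When each library was left out, the differences from si-NC were 6.15 to 7.49 and 0.752 to 2.09 FPKM for the Argonaute sum, 8.31 to 9.41 and 5.88 to 6.93 percentage points for the AGO2 share, and 0.354 to 0.465 and 1.13 to 1.4 for the ratio of DROSHA to DGCR8.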
